A study of Mus musculus with 8 samples.

Results

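The proximal and intermediate Ighv segments are the variable (V) gene segments of the mouse immunoglobulin heavy chain (Igh) locus that lie nearest to its diversity (D) and joining (J) segments. They were read from the exon lines of the single composite Igh transcript in the RNA-seq files of sorted bone marrow pre-B cells, on the minus strand of chromosome 12 in mm10, from Ighv5-1 at 113572935 to Ighv6-7 at 114455919. Exon blocks up to 500 bases apart were joined, and a group with a block of at least 50 bases was counted as a segment. This gave 50 segments of the 127 Igh V segments in the composite and of 63985 transcripts and segments listed in all. The proximal stretch, up to the far end of Ighv2-9 at 113879555, held 21 of them (families Ighv2 and Ighv5 and the pseudogene Gm37722), and the intermediate stretch held 29 (families Ighv3, Ighv4, Ighv6, Ighv7, Ighv9, Ighv11, Ighv12, Ighv13 and Ighv14). Each overlapped 1 annotated V gene, 45 of them annotated as functional and 5 as pseudogenes. Of the 79 V genes annotated there, 29 had no segment, among them 26 pseudogenes and the functional Ighv16-1, Ighv6-4 and Ighv6-5.

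The study compared mice that lacked Dido1 exon 16, the last exon of the DIDO3 isoform, on both alleles in blood cells with littermates. Each genotype had 2 pre-B libraries. WT animals carried Dido1 flE16/+, the R26R-EYFP reporter and iCre under the Vav1 promoter. Dido1∆E16 animals carried Dido1 flE16/∆E16 with the same reporter and the same Cre, which acts throughout the hematopoietic lineage. Their ∆E16 allele came from an earlier cross with a Sox2 Cre line and was inherited without exon 16. The WT group thus also carried Cre and 1 floxed allele, and the study calls these littermates heterozygous controls. They are therefore not a control with 2 intact alleles in blood cells. The strain was given as C57BL/6, and each library came from a pool of mice. The study's methods describe animals matched for age and sex. A figure legend of the study gives the RNA-seq and ATAC-seq samples as male and of differing ages. Pre-B cells were sorted on surface markers, B220+ and IgM- among them, a gate that can also hold pro-B cells. The same study profiled open chromatin by ATAC-seq in LSK cells (lineage-negative Sca-1+ c-Kit+ progenitors), with 2 libraries of each genotype.

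A heavy chain V exon is built in 2 steps: a D segment joins a J segment, and a V segment then joins the DJ unit. The RAG1 and RAG2 recombinase cuts at the recombination signal sequence (RSS) that follows each V segment, made of a heptamer, a spacer and a nonamer. Segments near the D cluster can reach it over a short distance, whereas segments farther away depend on locus contraction and on loop extrusion by cohesin, in which CTCF-bound sites take part. In pre-B cells, transcripts of a V segment come mainly from rearranged alleles. Their level can follow how often the segment is used, but also the amount of RNA per cell and germline V transcription in earlier cells.

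The RSS is the element at which each segment is joined, and it is shown here for 4 of the most highly expressed segments of each stretch. Each line holds the last 30 bases of the V segment followed by its RSS, on the coding strand and from GRCm38.p6, the same coordinates as mm10, with the heptamer and the nonamer in capitals. The proximal segments were Ighv5-2 (chr12:113578465-113578533), Ighv2-2 (chr12:113588228-113588296), Ighv5-4 (chr12:113597407-113597475) and Ighv5-12 (chr12:113702085-113702153). The intermediate segments were Ighv9-3 (chr12:114140654-114140721), Ighv14-4 (chr12:114176400-114176467), Ighv3-6 (chr12:114288113-114288181) and Ighv6-3 (chr12:114391673-114391741).
Ighv5-2: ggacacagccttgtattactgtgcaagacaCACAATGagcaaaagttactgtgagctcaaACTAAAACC
Ighv2-2: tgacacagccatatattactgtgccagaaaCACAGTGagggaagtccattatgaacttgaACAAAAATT
Ighv5-4: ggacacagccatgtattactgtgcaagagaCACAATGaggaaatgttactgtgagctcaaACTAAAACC
Ighv5-12: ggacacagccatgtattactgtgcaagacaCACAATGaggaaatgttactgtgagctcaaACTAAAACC
Ighv9-3: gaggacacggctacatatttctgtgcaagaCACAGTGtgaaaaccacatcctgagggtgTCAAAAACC
Ighv14-4: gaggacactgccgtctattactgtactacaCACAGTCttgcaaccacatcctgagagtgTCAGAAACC
Ighv3-6: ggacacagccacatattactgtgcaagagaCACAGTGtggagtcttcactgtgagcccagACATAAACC
Ighv6-3: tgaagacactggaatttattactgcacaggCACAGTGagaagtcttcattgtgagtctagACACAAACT

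An RSS with at most 5 mismatches to the heptamer CACAGTG and the nonamer ACAAAAACC was found within 60 bases of the annotated 3′ end of 20 proximal and 28 intermediate segments. The heptamer matched CACAGTG in full in 14 proximal and 18 intermediate segments. The spacer was 23 bases long in 19 proximal and 20 intermediate segments, and 22 bases long in 8 intermediate segments of the Ighv9 and Ighv14 families. The frequency of a further element differed between the stretches. The letters CCNNNAGNNGGC, the core of the CTCF motif, were present on either strand within 300 bases downstream of the RSS (or of the V segment's annotated end where no RSS was found) in 18 of 21 proximal segments (85.7%) and in 12 of 29 intermediate segments (41.4%). The same letters occurred in 2.47% of 2957 windows of 300 bases tiling the interval. Its position was similar in both. In the intermediate segments with an RSS and the core, the core began 20 or 21 bases after the nonamer. In Ighv7-2, where no RSS was found, it began 52 bases after the annotated end. In the proximal segments the core began 16 to 21 bases after the nonamer, as in Ighv5-2 (chr12:113578414-113578465) and Ighv2-2 (chr12:113588175-113588226), shown with the core in capitals.
Ighv5-2: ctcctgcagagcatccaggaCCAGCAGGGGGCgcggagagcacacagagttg
Ighv2-2: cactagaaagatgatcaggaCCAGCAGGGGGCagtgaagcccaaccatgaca
A match of letters is a description and does not show that CTCF was bound.

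Levels are given on a TPM-like scale: the read coverage of a segment's blocks, averaged over their bases, times the median ratio of TPM to coverage in that library. Values are listed as replicates 1 and 2, with the WT libraries first and the Dido1∆E16 libraries after the word against. The 4 libraries held 1121 to 1635.1 megabases of aligned sequence over all transcripts. On the TPM-like scale the last Dido1 exon (chr2:180657963-180662583) stood at 24.6 and 21.8 (WT) against 0.295 and 0.0843 (Dido1∆E16). Pre-B markers were present throughout, with Il2ra between 261 and 300.7 TPM and Rag1 between 696 and 831 TPM. Dido1∆E16 replicate 2 stood apart in the levels of other lineages: the summed TPM of 6 neutrophil and monocyte markers was 171 and 1522 (WT) against 737 and 6382 (Dido1∆E16), and that of 5 erythroid markers was 245 and 751 against 536 and 6816. The 6 T and NK cell markers summed to 4.83 to 26.0 TPM, with Cd3e and Cd3g listed at 0 in all libraries. Results are therefore also given without this library.

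The intermediate segments lay at lower levels in Dido1∆E16 pre-B cells, whereas the proximal segments as a group stood near their WT levels. The summed level of the intermediate stretch was 2519 and 2745 (WT) against 1329 and 1685 (Dido1∆E16), which is 43.1% lower (log2 difference -0.81). The lowest WT library lay above the highest Dido1∆E16 library. The summed level of the proximal stretch was 1385 and 1662 (WT) against 1496 and 1728 (Dido1∆E16) (log2 difference 0.08), and the genotypes overlapped. The proximal to intermediate ratio was 0.550 and 0.605 in WT (mean 0.578 ± 0.039 SD, n = 2) and 1.13 and 1.03 in Dido1∆E16 pre-B cells (1.08 ± 0.071 SD, n = 2), a difference of 0.90 on the log2 scale. This ratio does not depend on how the libraries were scaled to each other. In exact two-sided permutation tests over libraries, p was 0.333 for the intermediate sum and for the ratio and 0.667 for the proximal sum; 0.333 is the smallest p that 2 against 2 libraries allow, so no such comparison could pass 0.05. Without Dido1∆E16 replicate 2 the log2 difference was -0.98 for the intermediate sum, -0.02 for the proximal sum and 0.96 for the ratio. In bulk RNA, fewer cells that use a segment and less RNA per cell cannot be told apart.

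**Figure D1:**
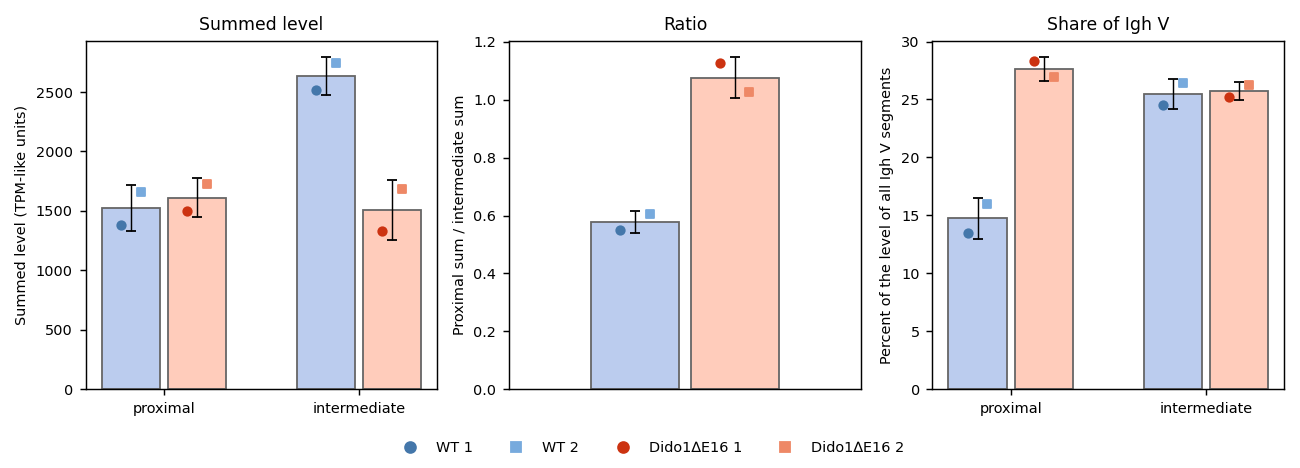
Summed level of the proximal and intermediate segments (left, TPM-like units), their ratio (middle) and their percent of the level of all Igh V segments (right) in pre-B cells. Bars show the mean of 2 libraries, error bars the SD and points the libraries (blue WT, red Dido1∆E16). The ratio lay between 0.550 and 0.605 in WT and between 1.03 and 1.13 in Dido1∆E16 libraries.

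Transcripts of the surrogate light chain and of Dntt stood higher in the Dido1∆E16 libraries, in which the intermediate sum was lower and the proximal sum overlapped with WT. Vpreb1, which with Vpreb2 and Igll1 encodes the surrogate light chain of the pre-B receptor, stood at 108 and 40.9 TPM (WT) against 1222 and 738 TPM (Dido1∆E16). Igll1 stood at 112 and 34.4 against 424 and 252 TPM. Dntt, the terminal transferase of pro-B cells, stood at 48.7 and 7.18 against 191 and 96.0 TPM. Both Dido1∆E16 libraries exceeded both WT libraries for each of these genes, and none passed the limma test after adjustment over all genes (lowest adjusted p = 0.191, Vpreb1). The 9 pre-B markers include Vpreb1, Vpreb2 and Igll1. Of the 9, 7 had a positive log2 fold change, as did 58.5% of all 11759 genes tested. In 4 of them both Dido1∆E16 libraries lay above both WT libraries, as in 27.2% of all genes. Of the 6 mature B markers, 4 had a negative log2 fold change, and in 3 both Dido1∆E16 libraries lay below both WT libraries, as in 15.5% of all genes. Ighd, a mature B cell transcript from the same locus, stood at 546 and 438 against 223 and 155 TPM, and Fcer2a, a receptor of mature B cells, at 65.6 and 63.6 against 29.1 and 46.7 TPM. Ms4a1 overlapped between genotypes. Ltb, the cytokine lymphotoxin beta, went the other way, at 154 and 155 against 604 and 670 TPM. The 6 mature B markers summed to 1207 and 1229 against 1280 and 1430 TPM, and to 1053 and 1074 against 676 and 759 TPM without Ltb, which was left out after its values were seen. Among the 9 plasma and switched B cell markers, the switched isotype Ighg2b stood at 4.83 and 0 against 66.7 and 47.1 TPM and the plasma cell marker Sdc1 at 121.3 and 102 against 64.4 and 57.0 TPM, with no overlap for either. Ighg1, Ighg2c and Ighg3 were listed at 0 throughout, and the 9 summed to 253 and 289 against 293 and 279 TPM. The part of these cell populations in the difference between the stretches was not tested.

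**Figure D2:**
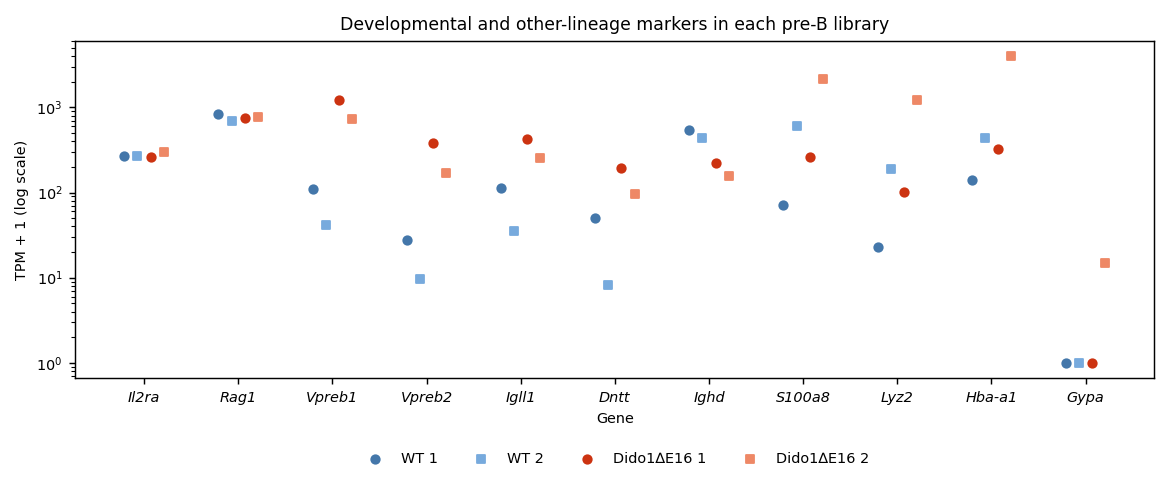
TPM + 1 (log axis) of developmental and other-lineage markers in each pre-B library (blue WT, red Dido1∆E16; circles replicate 1, squares replicate 2). Il2ra and Rag1 lay close together in the 4 libraries. Vpreb1, Vpreb2, Igll1 and Dntt were higher in both Dido1∆E16 libraries, and S100a8, Lyz2 and Hba-a1 were highest in Dido1∆E16 replicate 2.

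Of the 50 segments, 44 had a mean level of at least 1 and entered the fit across all features (18 proximal, 26 intermediate). No segment was called by limma (adjusted p below 0.05 with a log2 fold change of 0.6 or more in either direction), where the background over all 16585 features was 0.0603% called lower and 0.0904% called higher in Dido1∆E16. At an unadjusted p under 0.05, 19 segments were lower (2 proximal, 17 intermediate; background 3.52%) and 1 proximal segment was higher (background 6.14%). The lowest adjusted p among the segments was 0.229. The 20 segments at an unadjusted p under 0.05 became 9 without WT replicate 2, 8 without Dido1∆E16 replicate 1 and 12 without Dido1∆E16 replicate 2, fits with fewer libraries in which the lone library is assumed to vary like the pair. Without Dido1∆E16 replicate 2 the log2 fold change was negative in 26 of 26 intermediate and 11 of 18 proximal segments. Both Dido1∆E16 libraries lay below both WT libraries for 25 of 26 intermediate segments and for 3 of 18 proximal segments, against 16.3% of all features. They lay above both WT libraries for 2 proximal segments and no intermediate segment, against 23.2% of all features. The median log2 fold change was -0.79 over the intermediate segments, -0.10 over the proximal segments and 0.05 over all features. Segments of 1 locus share its regulation, and those of a family have similar sequences, so they are not independent of each other.

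**Figure D3:**
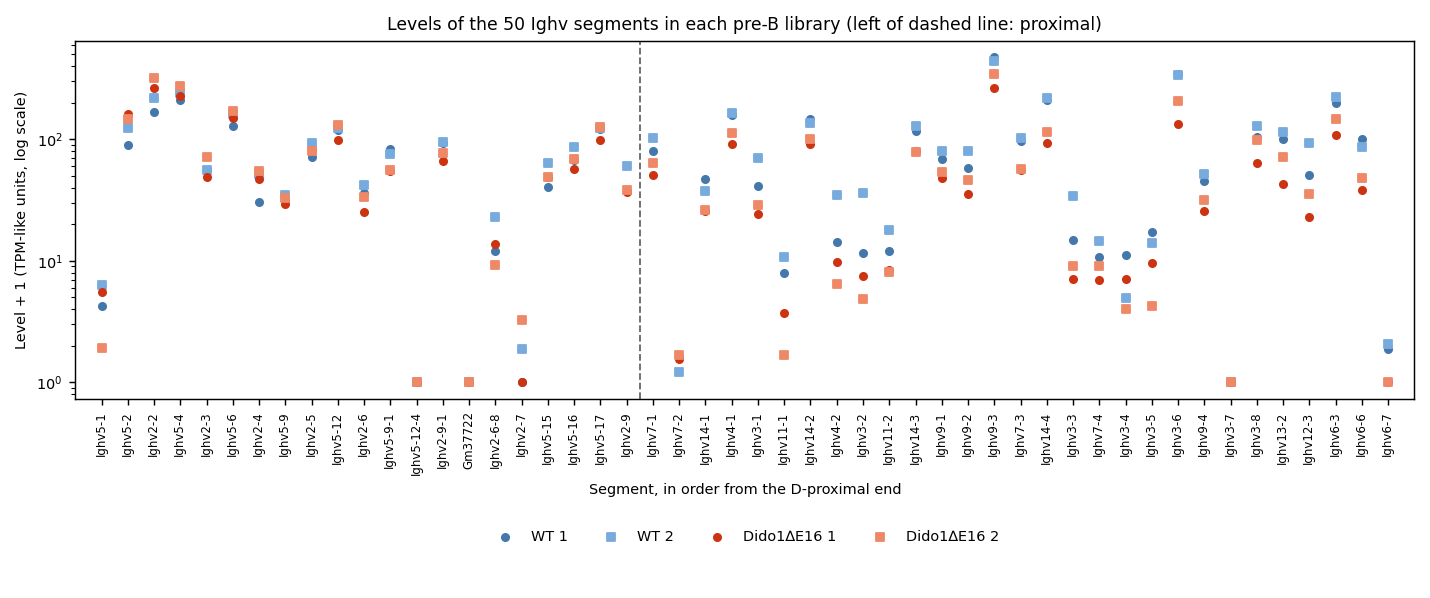
Level + 1 (TPM-like units, log axis) of each of the 50 segments in the 4 pre-B libraries, ordered from the D-proximal end; the dashed line separates the 21 proximal from the 29 intermediate segments. To the right of the line, the red Dido1∆E16 points lay below the blue WT points in 25 of the 26 segments tested.

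Within the proximal stretch the log2 fold changes had both signs, 6 positive and 12 negative. Both Dido1∆E16 libraries lay above WT for 2 of the 18 tested segments and below it for 3. These counts are near or under the shares over all features, 23.2% above and 16.3% below. The sign of 9 of the 18 changed when 1 library was left out. Near the D-proximal end of the stretch, Ighv2-2, the segment after Ighv5-1 and Ighv5-2, stood at 167 and 216 (WT) against 261 and 318 (Dido1∆E16). Ighv5-2 stood at 88.8 and 122 against 161 and 147. These were the 2 proximal segments with both Dido1∆E16 libraries above both WT libraries, with log2 fold changes of 0.60 (SE 0.20, limma adjusted p = 0.496) and 0.56 (SE 0.20, adjusted p = 0.538). The next segment, Ighv5-4, stood at 211 and 238 against 226 and 275, a log2 fold change of 0.15 with a 95% interval from -0.30 to 0.60. Ighv5-6 stood at 128 and 161 against 148 and 171, and its genotypes also overlapped (log2 fold change 0.14). Ighv2-3 stood at 55.1 and 55.2 against 48.0 and 70.4, and Ighv2-4 at 29.6 and 50.5 against 46.5 and 54.0. Ighv5-1, the first segment and a pseudogene, was low throughout, at 3.24 and 5.30 against 4.53 and 0.926 (log2 fold change -0.66, SE 0.71).

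Past Ighv2-4, a point chosen after the values were seen, the 11 tested proximal segments had negative log2 fold changes, from -0.02 to -0.56. The choice of point fixes this shared sign, and 7480 of all 16585 features also had a negative value. As a share of all Igh V segments, each of the 11 was positive. Ighv5-9-1 stood at 82.9 and 75.0 (WT) against 53.6 and 54.5 (Dido1∆E16) (log2 fold change -0.54, SE 0.12, limma adjusted p = 0.382). Ighv2-9-1 stood at 92.7 and 93.9 against 65.4 and 75.6 (log2 fold change -0.40). Ighv2-6 stood at 35.2 and 41.4 against 24.035 and 32.7 (log2 fold change -0.43). These were the 3 proximal segments whose Dido1∆E16 libraries lay below both WT libraries. For the others the genotypes overlapped. Ighv5-12 stood at 118 and 124 against 98.2 and 130, and Ighv5-17 at 120 and 124 against 98.1 and 125. Ighv2-5 stood at 71.1 and 92.2 against 81.1 and 78.7, with a 95% interval of its log2 fold change from -0.53 to 0.49. Ighv5-16 stood at 66.1 and 84.7 against 55.8 and 67.3, and Ighv5-15 at 39.4 and 62.8 against 48.2 and 48.4. Ighv5-9 stood at 30.4 and 33.8 against 28.1 and 31.7, and Ighv2-6-8 at 10.998 and 21.9 against 12.8 and 8.24. Ighv2-9, the last proximal segment, stood at 36.4 and 59.1 against 35.8 and 37.5. Ighv2-7 had a mean level of 0.789 and was not tested, and Ighv5-12-4 and Gm37722 were listed at 0 in all libraries.

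Divided at Ighv2-4, a point chosen after the values were seen and so given with no test, the first 7 proximal segments summed to 682 and 848 (WT) against 895 and 1035 (Dido1∆E16). The 14 after them summed to 703 and 813 against 601 and 692. The ratio of the first sum to the second was 0.970 and 1.04 (WT) against 1.49 and 1.496 (Dido1∆E16).

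In the intermediate stretch, all 26 tested segments had a negative log2 fold change, from -0.46 to -1.88. Of these, 22 lay at -0.6 or lower, as did 14.1% of all features. The highest was Ighv9-3, at 474 and 441 (WT) against 263 and 342 (Dido1∆E16) (log2 fold change -0.61, SE 0.17, limma adjusted p = 0.443). Ighv3-6 stood at 343 and 338 against 131 and 205 (log2 fold change -1.05, SE 0.26, adjusted p = 0.397). Ighv14-4 stood at 208 and 220 against 91.6 and 113 (log2 fold change -1.07, SE 0.15, adjusted p = 0.240). Each of these segments was separated by genotype, with the lowest WT value above the highest Dido1∆E16 value. Ighv6-3 stood at 198 and 223 against 107 and 146, and Ighv4-1 at 158 and 165 against 91.4 and 112. Ighv14-2 stood at 147 and 135 against 91.2 and 99.1, and Ighv14-3 at 115 and 128 against 78.7 and 77.3. Ighv3-8 stood at 103 and 126 against 62.5 and 97.7, the smallest separation among the 10 highest segments. Ighv13-2 stood at 98.6 and 115 against 41.5 and 69.9, and Ighv7-3 at 96.0 and 101 against 54.9 and 56.0. Ighv7-3 had the lowest adjusted p of all members (log2 fold change -0.82, SE 0.11, adjusted p = 0.229).

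The lowest log2 fold changes belonged to segments of low level and wide error. Ighv11-1 stood at 6.89 and 9.77 (WT) against 2.72 and 0.683 (Dido1∆E16) (log2 fold change -1.88, SE 0.58). The pseudogene Ighv3-2 stood at 10.7 and 34.9 against 6.45 and 3.86 (log2 fold change -1.77, SE 0.69). The pseudogene Ighv4-2 stood at 13.4 and 33.6 against 8.86 and 5.43 (log2 fold change -1.49, SE 0.57). Ighv3-4, at 10.1 and 3.94 against 6.14 and 3.04, was the 1 tested intermediate segment whose genotypes overlapped; it is named because it is the exception. Ighv7-1, the first intermediate segment, stood at 79.0 and 102 against 49.8 and 62.4, with no overlap, whereas Ighv2-9 on the other side of the border overlapped. Ighv6-7, the last one, stood at 0.866 and 1.09 in WT and was listed at 0 in both Dido1∆E16 libraries. It was not tested, nor were Ighv7-2 (mean level 0.523) and the pseudogene Ighv3-7, listed at 0.

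By family, the 10 tested Ighv5 segments had log2 fold changes with a median of -0.10 and the 8 tested Ighv2 segments with a median of -0.18. Summed, Ighv5 stood at 887 and 1030 (WT) against 921 and 1050 (Dido1∆E16), and Ighv2 at 498 and 631 against 575 and 677, with overlap in both. For each intermediate family sum the 2 genotypes did not overlap, with Dido1∆E16 below WT, as for 16.3% of all features. These sums hold the same segments as counted above and add no separate support. Ighv12 and Ighv13 hold 1 segment each. Ighv9 summed to 643 and 650 against 369 and 471, and Ighv14 to 516 and 518 against 286 and 315. Ighv3 summed to 538 and 619 against 245 and 349, and Ighv6 to 298 and 309 against 144 and 193. The log2 difference was smallest in Ighv9 (-0.63) and lowest in Ighv11 and Ighv12 (both -1.31), families of 2 and 1 segments.

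**Figure D4:**
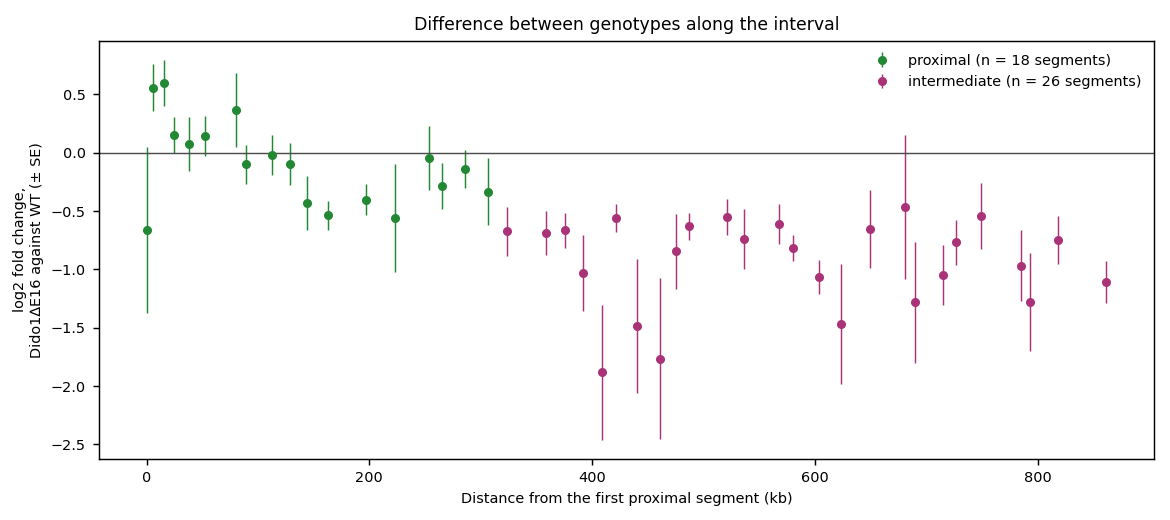
Log2 fold change (Dido1∆E16 against WT, limma, ± SE) of the 44 tested segments by distance from the first proximal segment in kb. Values lay between -0.66 and 0.60 in the proximal stretch (green) and between -1.88 and -0.46 in the intermediate stretch (purple).

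Along the interval, in steps of 100 kb from its D-proximal end, the log2 difference of summed levels was 0.32, -0.25 and -0.18 in the first 3 steps and between -0.65 and -1.09 in the other 6. Over the 44 segments the Spearman correlation of log2 fold change with position was -0.73; it was -0.50 over the 18 proximal and -0.07 over the 26 intermediate segments. These are descriptions across segments of the same 4 libraries. Among the 26 tested intermediate segments, the 11 with the CTCF core letters had a median log2 fold change of -1.03 and the 15 without them one of -0.75, and both groups spanned a wide range (-0.54 to -1.77 and -0.46 to -1.88). All 18 tested proximal segments had the letters.

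The direction for single stretches depended on what the levels were set against. Centring the libraries on their median moved values by 0.11 on the log2 scale, and the proximal sum then differed by -0.02 and the intermediate sum by -0.92. Ighm, the constant region first transcribed with a rearranged V exon, stood at 14569 and 17883 (WT) against 13126 and 13946 (Dido1∆E16). The proximal stretch amounted to 9.51% and 9.29% of the Ighm level in WT and to 11.4% and 12.4% in Dido1∆E16 libraries. The intermediate stretch amounted to 17.3% and 15.3% against 10.1% and 12.1%. As a share of all Igh V segments, the proximal stretch took 13.5% and 15.98% (WT) against 28.3% and 26.9% (Dido1∆E16), with no overlap. The intermediate stretch took 24.5% and 26.4% against 25.2% and 26.3%, so its share overlapped between genotypes. The remaining segments, beyond the interval, took 62.0% and 57.6% against 46.5% and 46.8%, and the intermediate level relative to them was 0.396 and 0.458 (WT) against 0.542 and 0.561 (Dido1∆E16). Each of the exact permutation tests on these shares and ratios gave p = 0.333, the smallest possible, except for the intermediate share (p = 1).

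**Figure D5:**
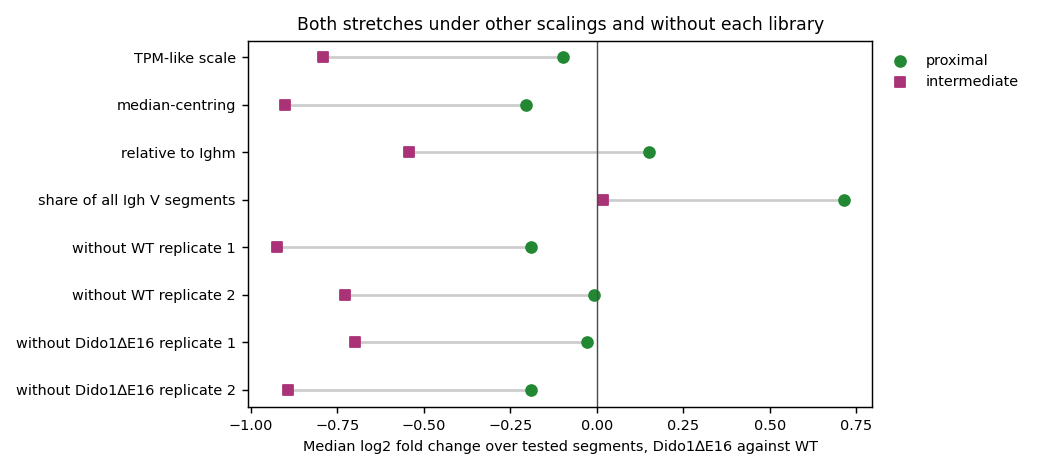
Median log2 fold change over the 18 proximal (green circles) and 26 intermediate (purple squares) tested segments, Dido1∆E16 against WT, on the TPM-like scale, under 3 other scalings and without each library. The intermediate median lay below the proximal median in each case. It was -0.79 on the TPM-like scale and 0.02 as a share of all Igh V segments.

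The segments of a family are close copies, which bears on how far single values can be trusted. Among segments with a block of at least 200 bases, the best-matching other member was at least 95% identical for 4 of 19 proximal and 7 of 28 intermediate segments, for instance Ighv2-2 and Ighv2-5 (97.1%) and Ighv14-1 and Ighv14-4 (97.3%). Among members of the interval, the best match lay in the same stretch for every segment. Segments beyond the interval were not compared, and how reads were assigned among copies was not tested. Ighv5-1 and Ighv3-8 also share 39 and 54 bases with another listed transcript. Without them the log2 difference of the ratio was 0.91.

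In LSK cells, which precede V(D)J recombination, few accessible regions fell in the interval. MACS2 peaks there numbered 6 and 22 in the WT libraries, of 27352 and 57739 in all, and 0 and 2 in the Dido1∆E16 libraries, of 13208 and 16329. When only the 13208 highest-scoring peaks per library were kept, the interval held 1 and 4 (WT) against 0 and 1 (Dido1∆E16). The number of peaks called in a library moved with these counts and its part in them was not tested.

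The genes that carry out or organise heavy chain recombination were listed for comparison. Of 25 such genes, none was called in the fit over gene sums, where 0.051% of 11759 genes were called, and 2 (Dntt and Stat5a) had an unadjusted p under 0.05, against 11.6% of all genes. The median log2 fold change was 0.04 over the list and 0.07 over all genes. Pax5 and Yy1, factors needed for contraction of the locus, stood at 805 and 835 against 800 and 786 TPM and at 147 and 122 against 131 and 137 TPM. Ctcf stood at 322 and 233 against 257 and 292 TPM, and the cohesin subunit Rad21 at 372 and 182 against 242 and 298 TPM. Wapl, which releases cohesin from DNA, stood at 16.97 and 15.9 against 18.9 and 21.3 TPM. Rag1 stood at 831 and 696 against 754 and 779 TPM. Stat5a, which acts downstream of the interleukin-7 receptor, stood at 32.2 and 31.8 against 52.7 and 55.3 TPM (log2 fold change 0.74, SE 0.14, limma adjusted p = 0.227).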

How the data were processed

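RNA of 4 sorted pre-B libraries was sequenced. Per the submitters' notes and the study's methods, the authors aligned reads to mm10 with BWA-MEM 0.7.15, an aligner that does not split reads at introns, removed duplicates, and ran StringTie 2.0 against known UCSC transcripts. The deposited values are TPM, FPKM and coverage; no counts were used here, so the limma test on log2 values took the place of a count test. Reads that match several V segments may be placed in any of them. LSK peak lists hold the authors' MACS2 and HOMER calls per library, with a deposited score. Tables of the authors' own comparisons (differential peaks and edgeR results) were not used.

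Segment levels replaced the composite Igh and Igk transcripts in 1 table, in which features with a mean of at least 1 were tested with limma 3.58.1 (R 4.3.3) on log2(level + 1), with a trend and Benjamini-Hochberg adjustment over all 16585 features. Fold changes are on that scale, which understates those of low segments. A call required adjusted p below 0.05 together with a log2 fold change of 0.6 or more in either direction. Gene symbols came from GENCODE M21 by at least 50% exonic overlap on the same strand. Sums, ratios and shares were compared by exact two-sided permutation over libraries. Aligned megabases are coverage times length; depth in reads is unknown, so no counting interval is given. Libraries are pools of mice, and n is the number of pools. The 50-base minimum for a segment was set after the files were seen; the 202 shorter groups of blocks held 0.00179% of aligned bases in the interval. Proximal segments with a mean of at least 1, the 10 highest intermediate segments, the 3 largest changes in each direction among intermediate segments (all were lower), any called member and those at the ends of the stretches were named by rule. The members and lists were chosen with earlier results of these data known. The fit was also run on simulated levels with independent noise per feature and no effect shared within a library, unlike these libraries. Its outcome is not given here and is not used as support. Alternatives covered block joining, scaling, pseudocount, filter, trend, replicate block and leaving out each library. The level of 1 listed marker is not reported here.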

Additional observations from a re-analysis of the deposited data

How the results depend on the processing

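No segment was called under any alternative run. The number at an unadjusted p under 0.05 was 20; it was 12 as a share of all Igh V segments, 9 without a trend in eBayes, and 8 to 15 when each library was left out. With a replicate block by the labels' numbers, it was 17. Nothing in the labels says that equal numbers pair the libraries, and over all features tested the deviations of equally numbered libraries from their group means correlated at 0.071. The ratio differed by 0.83 to 0.97 (log2) without each library and by 0.53 to 0.91 under the other settings. The intermediate sum differed by -0.98 to -0.64 without each library, and it reversed as a share of all Igh V segments (0.014). The proximal sum had no stable direction: it was -0.048 to 0.21 without each library, turning negative without WT replicate 1 (-0.048) or Dido1∆E16 replicate 2 (-0.021). It was -0.024 after median-centring, -0.0089 without the highest segment (Ighv2-2) and -0.27 as a median over segments. The cause was not tested.

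Of 415 log2 fold changes of the 32 named and tested segments under alternatives, 36 changed sign, in 22 segments. As a share of all Igh V segments the values became 0.70 for Ighv5-9, 0.80 for Ighv2-5, 0.73 for Ighv5-12, 0.37 for Ighv2-6, 0.28 for Ighv5-9-1, 0.41 for Ighv2-9-1, 0.21 for Ighv2-6-8, 0.77 for Ighv5-15, 0.53 for Ighv5-16, 0.68 for Ighv5-17 and 0.48 for Ighv2-9, and among intermediate segments 0.14 for Ighv7-1, 0.16 for Ighv4-1, 0.26 for Ighv14-2, 0.19 for Ighv14-3, 0.22 for Ighv9-3, 0.28 for Ighv3-8 and 0.076 for Ighv6-3. Relative to Ighm they became 0.15 for Ighv5-9, 0.23 for Ighv2-5, 0.16 for Ighv5-12, 0.21 for Ighv5-15 and 0.12 for Ighv5-17. With the best-covered block, Ighv2-3 became -0.015 and Ighv2-5 0.021, and with median-centring Ighv2-3 became -0.033. Leaving out 1 library at a time turned the sign of 9 proximal segments, which then ranged from -1.42 to 0.10 (Ighv5-1), -0.20 to 0.35 (Ighv2-3), -0.022 to 0.31 (Ighv5-6), -0.010 to 0.74 (Ighv2-4), -0.20 to 0.17 (Ighv2-5), -0.30 to 0.11 (Ighv5-12), -0.37 to 0.29 (Ighv5-15), -0.31 to 0.036 (Ighv5-17) and -0.67 to 0.0094 (Ighv2-9). Among all 26 tested intermediate segments, named by rule or not, 1 turned positive without WT replicate 1 and 25 stayed negative. The 1 that turned was Ighv3-4, whose genotypes overlapped. The count of LSK peaks in the interval was lower by 13.0 on average in Dido1∆E16 libraries, by 12.5 with HOMER peaks, and by 2 when the same number of best-scoring MACS2 peaks was taken from each library.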

Other observations

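The D segments on one side of the interval and the V segments on the other differed between genotypes in opposite directions. On the D side, the D segment Ighd1-1 stood at 50.2 and 112 (WT) against 198 and 161 (Dido1∆E16) on the TPM-like scale. Ighd2-4 stood at 21.4 and 22.3 against 80.9 and 55.6, and Ighd2-5 at 11.6 and 11.2 against 50.6 and 46.3. Both Dido1∆E16 libraries were above both WT libraries for each of these blocks, as for 23.2% of all features. The blocks are examples from several on the D side and are only 21 to 44 bases long. They belong in part to a family of close copies and were not tested. On the far side, the first segment beyond the interval, Ighv1-2, stood at 48.7 and 75.8 against 27.1 and 38.0, and its neighbour Ighv10-1 at 192 and 219 against 77.7 and 115. Over the 67 tested Igh V segments beyond the interval the median log2 fold change was -1.11, and it was negative in all 67.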
